A study of Homo sapiens with 10 samples.

Results

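Potassium channel genes were taken as the rows of the read count table whose symbol begins with KCN, followed by family letters and a number. This rule found 95 of the 22626 rows, all of them protein-coding genes, and 15 of the 95 reached a mean FPKM (fragments mapped to a gene, divided by transcript length and by library size) of at least 0.5 over the 10 libraries and are called expressed here. RNA was sequenced from ARPE-19, an established human RPE cell line, kept for 48 h in high glucose medium (37.5 mM glucose, n = 5) or in control medium (5.5 mM glucose with 32 mM mannitol, n = 5). The labels name no genetic change in either group, and mannitol is a sugar alcohol that raises the osmolarity of the control medium without being used as glucose is. Control libraries are named by their replicate number. The high glucose libraries are named HG_1 to HG_5 after their columns, since the labels give only their group.

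Potassium channels let potassium ions leave or enter a cell along their electrochemical gradient and set its resting membrane potential. The family is built from pore-forming subunits (voltage-gated, calcium- or sodium-activated, inward rectifier and two-pore types), from silent voltage-gated subunits that form no channel alone, and from auxiliary subunits that change the gating or trafficking of the pore. In RPE tissue, potassium channels of the apical and basal membranes carry potassium between the subretinal space and the choroid, and the inward rectifier encoded by KCNJ13 is known as a main apical channel.

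Libraries held 32448991 to 45864176 counts. Where a gene had 0 counts, up to 3 remain possible by counting error alone, which is 0.0654 to 0.0925 on the scale of CPM, counts brought to a common library size with TMM factors. Nothing in the labels says that the libraries of a group came from separate cultures, so p-values measure the spread between these libraries, which may be technical. In bulk RNA, fewer cells of a type and less RNA per cell cannot be told apart. TXNIP and ARRDC4, which respond to glucose, rose by 3.15 and 0.74 on the log2 scale, and for both the groups lay apart. HG_1 and control replicate 2 stood apart: the slope of log2 counts on a gene's GC content, per 10 percentage points, was 0.188 and 0.170 in this pair and between -0.0916 and -0.00519 in the other 8 libraries. Of 15 RPE markers, 7 reached 0.5 FPKM, among them OTX2 (32.7 FPKM) and MITF (10.7 FPKM), and the visual cycle enzyme RPE65 was counted in 1 library only, so that this marker of differentiated RPE was at or near 0. The summed FPKM of the RPE list ranged from 58.3 to 179 in the control libraries and from 52.3 to 57.4 in the high glucose libraries, and BEST1 alone was at 35.9 ± 53.2 and 1.18 ± 0.466 FPKM (mean ± SD, n = 5 each). Among 10 RPE markers tested, 1 fell (the melanosome protein PMEL, log2 fold change -0.72). Of the other marker lists, 2 epithelial genes (KRT8 and KRT18), 3 mesenchymal genes (COL1A1, CDH2 and ACTA2), 1 endothelial gene (KDR) and 1 neuronal gene (SYT1) fell, 1 gene listed for leukocytes (CD68) rose, and the 1 glial gene tested was not called. Not called were VIM, the highest mesenchymal marker (2882 FPKM, log2 fold change 0.11), and the epithelial TJP1 (log2 fold change -0.06). KDR was itself under the limit (0.467 FPKM), with PECAM1 at 0.002 and CDH5 at 0 FPKM. Beside CD68, the leukocyte markers PTPRC and CD14 were at 0.004 and 0.042 FPKM. The part of these markers in the results below was not tested.

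Most potassium channel genes had little or no RNA in ARPE-19 cells. Of the 95 genes, 19 had no count in any library, 61 were counted with a mean FPKM under 0.5 and 15 were expressed. Each library held counts for 51 to 60 of the 95 genes and 13 to 17 genes at 0.5 FPKM or more, and the 95 genes together took 0.0210% to 0.0267% of a library's counts. With a limit of 0.1 FPKM, 36 genes would be expressed, and with a limit of 1 FPKM, 9.

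By type, the expressed genes were 3 of 30 voltage-gated pore subunits (KCNQ5, KCNH3 and KCNC4), 2 of 10 silent voltage-gated subunits (KCNS3 and KCNS1), 2 of 8 calcium- or sodium-activated channels (KCNMA1 and KCNN4), 3 of 15 two-pore channels (KCNK2, KCNK1 and KCNK6) and 5 of 16 auxiliary subunits (KCNAB2, KCNMB3, KCNMB4, KCNIP2 and KCNAB3). None of the 16 inward rectifiers was expressed. Their highest mean level was 0.345 FPKM, for KCNJ14, and KCNJ11, the pore of ATP-sensitive potassium channels, followed at 0.310 FPKM. Of the regulatory subunits that ATP-sensitive channels need, ABCC8 had no count and ABCC9 was at 0.390 FPKM.

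The genes without a count in any library included the voltage-gated KCNA1, KCNA3, KCNA5, KCNA6, KCNA10 and KCNC2, the silent subunit KCNG4, the inward rectifiers KCNJ6, KCNJ8, KCNJ12, KCNJ16 and KCNJ18, the two-pore channels KCNK3, KCNK10, KCNK16, KCNK17 and KCNK18, and the BK channel subunit KCNMB1. For KCNA6 a listing at 0 says little about its RNA, since 100% of its exon bases lie within exons of GALNT8 on the same strand and its reads could have been assigned there. KCNJ12 and KCNJ18 share 7.2% and 18.4% of their 100-base windows with each other. KCNJ13 was counted in 1 library, with 3 counts in HG_1, and 9.1% of its exon bases are overlapped on the same strand and 24.3% on the other. KCNJ10, an inward rectifier best known from glia, had 0, 0, 4, 0 and 4 counts in control replicates 1 to 5 and 3, 7, 3, 0 and 0 counts in HG_1 to HG_5. Both inward rectifiers stood at or near 0 in both media, too low for a comparison.

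**Figure D1:**
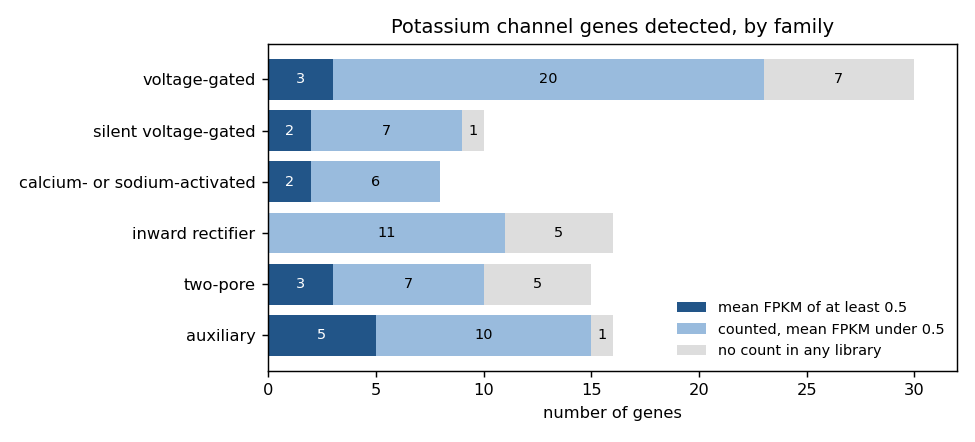
Number of potassium channel genes (x axis) in each type (y axis), split into expressed genes (mean FPKM 0.5 or more), genes counted with a mean FPKM under 0.5 and genes with no count in any of the 10 libraries. The inward rectifiers are the only type with no expressed gene, with 11 of 16 counted, and the auxiliary subunits have the most, 5 of 16.

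Levels are compared between genes on the FPKM scale, which is divided by transcript length. KCNMA1, the pore of the large-conductance calcium- and voltage-activated BK channel (chr10:76869601-77638369, minus strand, GRCh38), was highest at a mean of 21.2 FPKM. It made up 35.4% ± 6.26 of the summed FPKM of the 95 genes in control libraries and 36.0% ± 2.53 in high glucose libraries (mean ± SD, n = 5 each). KCNS3, a silent subunit that joins delayed rectifier channels, followed at 7.82 FPKM, the calcium-activated KCNN4 at 5.78, and the two-pore channels KCNK2, KCNK1 and KCNK6 at 3.45, 2.82 and 2.26.

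The lower part of the order was KCNQ5 (2.02 FPKM), KCNAB2 (1.86), KCNMB3 (1.35), KCNMB4 (0.849), KCNS1 (0.800), KCNIP2 (0.694), KCNAB3 (0.673), KCNH3 (0.537) and KCNC4 (0.535). Only KCNMA1 and KCNS3 were neighbours without overlap, the lowest KCNMA1 value being 13.2 FPKM and the highest KCNS3 value 8.98 FPKM. All other neighbours in the order overlapped in their ranges over the 10 libraries. KCNC4, KCNH3 and KCNAB3 lay just inside the limit of 0.5 FPKM, and KCNQ3 (0.497) and KCNT2 (0.492) just outside it. Part of the transcript of KCNMB3 cannot be assigned with certainty: 37.9% of its exon bases lie opposite exons on the other strand, mainly of PIK3CA, and 13.3% of its 100-base windows occur in pseudogenes. For KCNIP2, 12.2% of exon bases lie opposite KCNIP2-AS1, and 6.5% of the windows of KCNAB3 occur in AC104581.2.

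**Figure D2:**
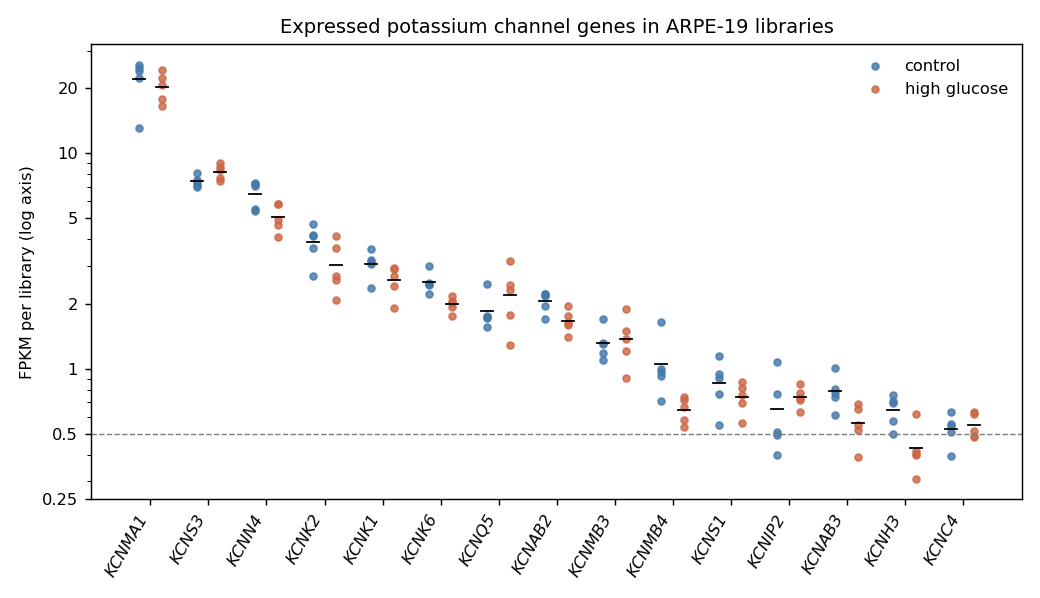
FPKM per library on a log axis for the 15 expressed potassium channel genes, control in blue and high glucose in orange, with a short line at each group's mean and a dashed line at 0.5 FPKM. KCNMA1 lies between 13.2 and 25.8 FPKM, apart from all other genes, and the groups overlap in every gene but KCNK6 on this scale.

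The comparison of high glucose with control medium rested on the quasi-likelihood test of edgeR, adjusted by the Benjamini-Hochberg method over 14936 rows, and a gene is called where the adjusted p is under 0.05. Of the 95 potassium channel genes, 37 passed the filter on low counts and were tested, 22 of them under 0.5 FPKM, and 58 were not tested, 39 of those with at least 1 count. Of the 37 tested, 6 (16.2%) were called, beside 15.4% of all rows tested. KCNQ3 was the 1 gene that rose, where 7.62% of all rows rose, and 5 fell, among them KCND3, KCNB2, KCNK2 and KCNK6, where 7.8% of all rows fell. The share of calls among the potassium channel genes was near that of all rows. Below 0 lay 21 of the 37 log2 fold changes (56.8%, against 49.8% of all rows), with a median of -0.23 against 0.0013 for all rows. That median was -0.071 without HG_4, -0.093 without control replicate 4, -0.11 without control replicate 5, -0.13 without HG_3 and -0.14 without HG_5, and on log2(FPKM + 1), where more genes entered, it was -0.0056.

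Among the 15 expressed genes 2 were called, both lower in high glucose (KCNK2 and KCNK6), beside 17% of all expressed rows in either direction and 8.51% lower. The groups did not overlap in CPM for KCND3, KCNB2 and KCNK6, 3 of the 37 tested genes, where 13.6% of all rows tested and 14.8% of the expressed rows had groups apart. The count of calls moved with the method: DESeq2 called 10 of the 43 genes to which it gave an adjusted p, a correction for GC content and transcript length called 13, and leaving out HG_1 and control replicate 2 together called 11. On log2(FPKM + 1) limma called 3, with KCNB2 and KCND3 lower and KCNU1 higher.

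By type, 3 of 14 voltage-gated genes tested fell and 1 rose, beside 7.8% of all rows lower and 7.62% higher, and their median log2 fold change was -0.42. All 4 two-pore genes tested had a log2 fold change below 0, beside 49.8% of all rows, with a median of -0.31, and 2 of them were called. None was called among 5 silent subunits (median 0.13), 4 calcium- or sodium-activated channels (median -0.18), 3 inward rectifiers (median 0.11) and 7 auxiliary subunits (median -0.32).

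**Figure D3:**
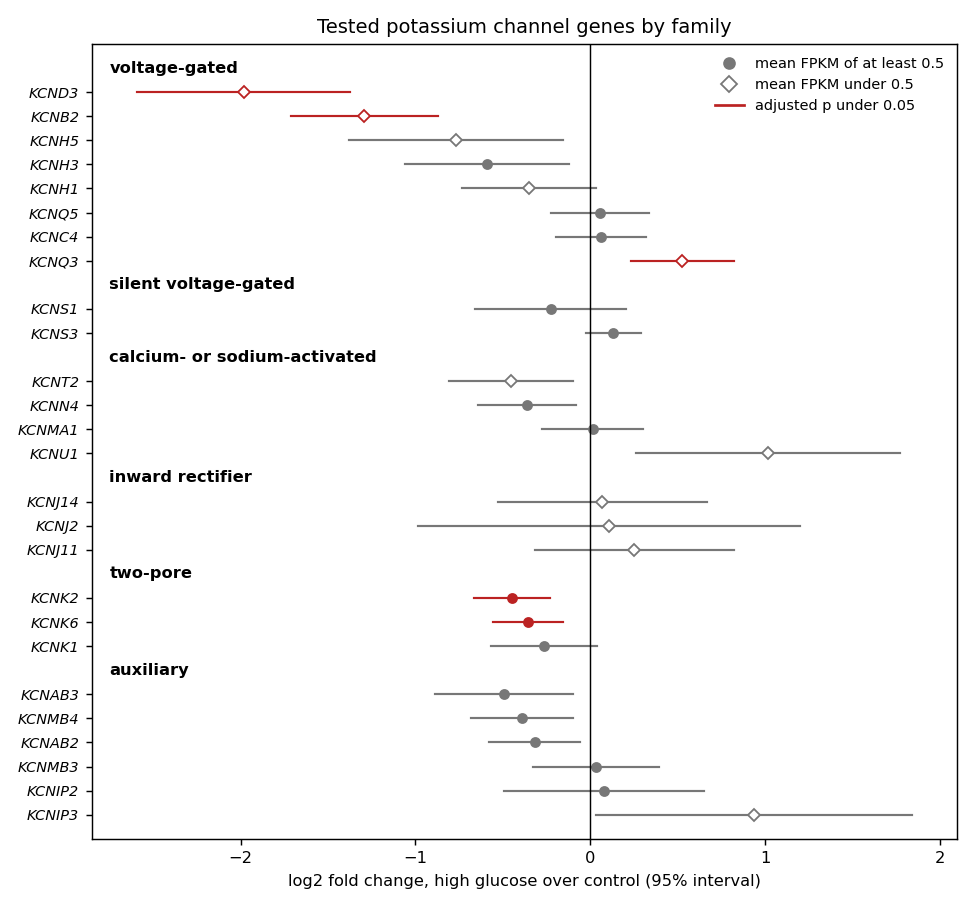
Log2 fold change of high glucose over control (x axis, points) with 95% intervals (lines) for the tested potassium channel genes named in the text, grouped by type. Filled circles are genes at 0.5 FPKM or more, open diamonds genes under it, and red marks called genes: KCND3, KCNB2, KCNK2 and KCNK6 lie left of 0 and KCNQ3 right of it.

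KCND3 (ENSG00000171385, chr1:111770662-111989155, minus strand) encodes the pore of a fast-inactivating, A-type voltage-gated channel that carries a transient outward current. It stood at 6.37, 3.36, 3.78, 4.42 and 4.22 CPM in control replicates 1 to 5 and at 0.857, 1.33, 1.29, 0.578 and 1.52 CPM in HG_1 to HG_5. Every high glucose library was below every control library, on 19 to 58 counts against 146 to 210. KCND3 fell to 0.253 of its control level (log2 fold change -1.98, SE 0.276, adjusted p = 0.00097 in edgeR's quasi-likelihood test), the largest change among the potassium channel genes called. Its level per length was low, 0.535 ± 0.142 FPKM in control and 0.135 ± 0.0493 FPKM in high glucose medium (SD, n = 5 each).

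KCNB2 (ENSG00000182674, chr8:72537391-72938349, plus strand) encodes a delayed rectifier subunit with which silent subunits such as KCNS3 assemble. KCNB2 was at 2.00, 1.26, 1.76, 1.60 and 1.57 CPM in control replicates 1 to 5 and at 0.623, 0.606, 0.557, 0.790 and 0.760 CPM in HG_1 to HG_5. Here too the groups lay apart, and KCNB2 fell by 1.29 on the log2 scale (SE 0.191, edgeR adjusted p = 0.00134). These values rest on 53 to 73 counts in control and 24 to 26 counts in high glucose libraries. KCNB2 was under the limit of 0.5 FPKM, at 0.401 ± 0.0692 FPKM in control and 0.163 ± 0.0240 FPKM in high glucose medium (SD, n = 5 each). KCNS3 itself stood at 18.7, 21.2, 19.1, 17.6 and 17.9 CPM in control replicates 1 to 5 and at 20.1, 22.3, 21.6, 20.8 and 18.7 CPM in HG_1 to HG_5. These ranges overlapped, with a log2 difference of 0.13 (95% interval -0.03 to 0.29, edgeR adjusted p = 0.260).

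KCNK2 (ENSG00000082482, chr1:215005775-215237093, plus strand) encodes a two-pore background channel that opens with membrane stretch, lipids and warmth. It was at 15.3, 11.1, 13.8, 13.8 and 13.2 CPM in control replicates 1 to 5 and at 9.07, 11.3, 10.1, 9.21 and 9.58 CPM in HG_1 to HG_5. HG_2 exceeded control replicate 2, and every other high glucose library was below all control libraries. KCNK2 fell to 0.733 of its control level (log2 fold change -0.45, SE 0.0985, edgeR adjusted p = 0.0113, exact permutation p = 0.0159, two-sided). On the FPKM scale the group means were 3.88 ± 0.762 and 3.03 ± 0.837 (SD, n = 5 each) and limma on log2(FPKM + 1) gave an adjusted p of 0.344. The ratio of FPKM to CPM of KCNK2 differed up to 1.51 times between libraries.

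KCNK6 (ENSG00000099337, chr19:38319844-38332076, plus strand) encodes a two-pore channel found at the surface and in endolysosomes. It was at 18.6, 15.7, 15.0, 13.7 and 15.4 CPM in control replicates 1 to 5 and at 12.3, 12.5, 12.4, 13.3 and 10.7 CPM in HG_1 to HG_5. All high glucose libraries were below all control libraries, the nearest being 13.3 CPM in HG_4 and 13.7 CPM in control replicate 4. KCNK6 fell to 0.781 of its control level (log2 fold change -0.36, SE 0.0911, edgeR adjusted p = 0.0233), and its exact permutation p of 0.00794 (two-sided) is the smallest that 5 against 5 libraries can give. Its call was lost without HG_3 (adjusted p = 0.0529) or without HG_5 (adjusted p = 0.0548), and in limma on FPKM with a pseudocount of 1 (adjusted p = 0.0596) or 0.1 (adjusted p = 0.0674). The third expressed two-pore channel, KCNK1, a weakly conducting relative of KCNK6, was at 7.00, 7.00, 5.31, 7.96 and 7.05 CPM in control replicates 1 to 5 and at 4.42, 6.42, 6.42, 5.93 and 5.35 CPM in HG_1 to HG_5. Control replicate 3 lay within the high glucose range, and the log2 difference of KCNK1 was -0.27 (95% interval -0.57 to 0.04, edgeR adjusted p = 0.235).

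**Figure D4:**
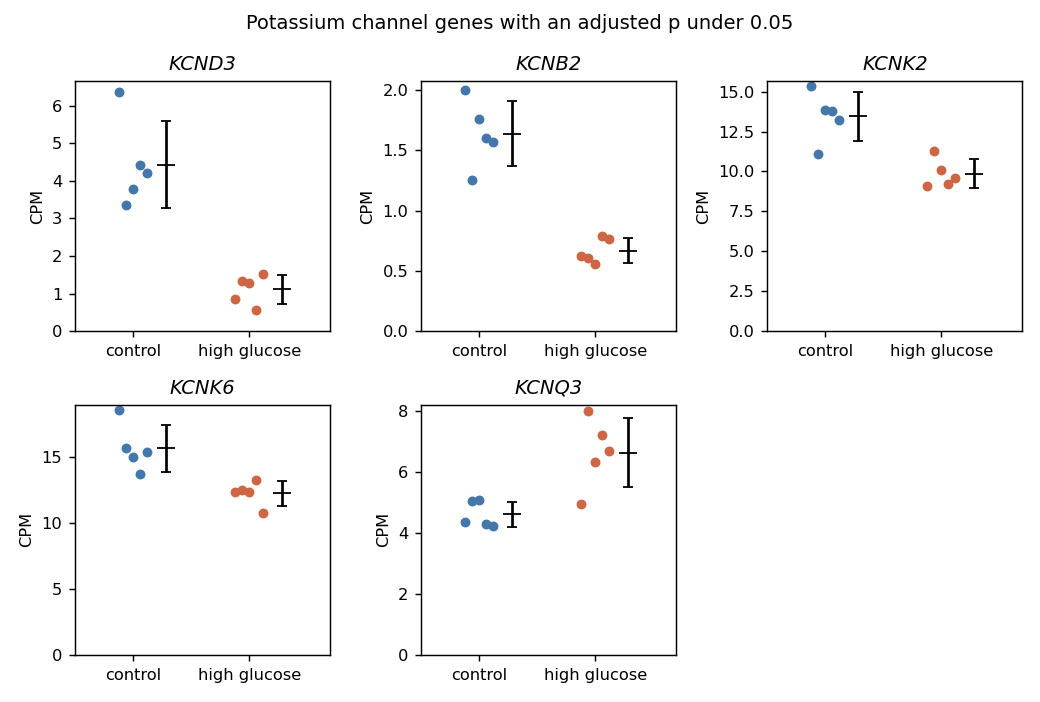
CPM per library for 5 called potassium channel genes, each panel with its own axis from 0, with the group mean and SD (n = 5) beside the points. KCND3, KCNB2 and KCNK6 show no overlap between control and high glucose, while 1 high glucose library lies inside the control range for KCNK2 and KCNQ3.

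Sequence upstream of the start is given for the called genes KCND3, KCNK2 and KCNK6 as the 250 bases before the most upstream start listed by RefSeq (GRCh38.p14), read 5′ to 3′ on the strand of the gene, with motif matches in capitals. The windows are chr1:111989669-111989918 (minus strand) for KCND3, chr1:215005292-215005541 (plus strand) for KCNK2 and chr19:38319595-38319844 (plus strand) for KCNK6. Bases just after the start were found in the gene's longest GENCODE transcript for KCNK6, but not for KCND3 or KCNK2. KCND3 and KCNK2 have 2 starts listed each, and their windows end upstream of the gene positions given above. Which start these cells use was not tested. Letters were searched on both strands for the E-box CACGTG, the core of the osmotic factor NFAT5 (TGGAAA, or TTTCCA on the other strand), the GC box (GGGCGG or CCGCCC) and the TATA box (TATAAA or TTTATA).
KCND3: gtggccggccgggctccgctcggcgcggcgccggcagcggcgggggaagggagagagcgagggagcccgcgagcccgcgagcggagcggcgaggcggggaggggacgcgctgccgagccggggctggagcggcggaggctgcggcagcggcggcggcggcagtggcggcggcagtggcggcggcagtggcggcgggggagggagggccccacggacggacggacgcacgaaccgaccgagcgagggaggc
KCNK2: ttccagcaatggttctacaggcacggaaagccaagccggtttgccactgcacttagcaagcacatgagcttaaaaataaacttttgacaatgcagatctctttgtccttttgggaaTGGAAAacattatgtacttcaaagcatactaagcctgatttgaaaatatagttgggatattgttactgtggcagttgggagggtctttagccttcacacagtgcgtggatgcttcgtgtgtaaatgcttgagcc
KCNK6: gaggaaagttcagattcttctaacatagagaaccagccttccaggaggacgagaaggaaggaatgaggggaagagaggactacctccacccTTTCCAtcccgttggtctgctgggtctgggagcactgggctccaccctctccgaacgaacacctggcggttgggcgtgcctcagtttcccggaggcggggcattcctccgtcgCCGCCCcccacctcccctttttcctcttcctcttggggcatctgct
The KCND3 window held none of the 4 motifs and had a GC content of 82.8%. The KCNK2 window, at 42.8% GC, held 1 NFAT5 core, and the KCNK6 window, at 59.6% GC, held 1 NFAT5 core and 1 GC box. Of 35116 upstream windows of the same length, 6.3% held the E-box, 18.0% the NFAT5 core, 42.6% the GC box and 10.7% the TATA box. A match describes letters in a window and is not a measured binding site.

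The KCNQ genes encode slowly activating voltage-gated channels that open near the resting potential. KCNQ3 (ENSG00000184156, chr8:132120858-132481019, minus strand) was at 4.37, 5.02, 5.07, 4.30 and 4.22 CPM in control replicates 1 to 5 and at 4.94, 8.00, 6.31, 7.20 and 6.66 CPM in HG_1 to HG_5. HG_1 lay below control replicates 2 and 3, and the other high glucose libraries lay above all controls. KCNQ3 rose 1.44-fold (log2 fold change 0.53, SE 0.133, edgeR adjusted p = 0.0226), and this call was lost without HG_2, HG_4 or control replicate 1, 4 or 5, each with an adjusted p between 0.0548 and 0.0583. On FPKM limma did not call KCNQ3 (adjusted p = 0.0843 with a pseudocount of 1 and 0.120 with 0.1).

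KCNQ5, a known partner of KCNQ3, was the KCNQ gene with the highest FPKM. It stood at 13.0, 9.51, 12.5, 12.7 and 11.2 CPM in control replicates 1 to 5 and at 9.38, 12.6, 11.5, 14.5 and 13.3 CPM in HG_1 to HG_5. The ranges overlapped almost whole, with a log2 difference of 0.06 (95% interval -0.22 to 0.33, edgeR adjusted p = 0.832), and the sign turned without HG_4 or without control replicate 2 (both -0.01).

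KCNMA1, the most abundant potassium channel transcript, showed no difference beyond its spread. It was at 69.3, 99.6, 113.6, 110.5 and 122.7 CPM in control replicates 1 to 5 and at 91.4, 109.8, 106.0, 112.9 and 100.3 CPM in HG_1 to HG_5. Control replicate 1 was lowest of all 10 libraries, and the high glucose values lay within the control range. The log2 difference of KCNMA1 was 0.01 (95% interval -0.28 to 0.30, edgeR adjusted p = 0.963), and -0.10 without control replicate 1. Of the BK channel auxiliary subunits, KCNMB4 was at 4.22 ± 0.522 CPM in control and 3.22 ± 0.379 CPM in high glucose medium (SD, n = 5 each), with a log2 difference of -0.39 that missed the threshold (edgeR adjusted p = 0.0749). KCNMB4 passed without control replicate 2 (adjusted p = 0.0385), in DESeq2 (adjusted p = 0.0492) and after correction for GC content and length (adjusted p = 0.0292). KCNMB3 differed by 0.03 (95% interval -0.33 to 0.39).

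KCNN4, the intermediate-conductance calcium-activated channel of many non-excitable cells, was at 10.8, 14.7, 11.2, 13.9 and 13.9 CPM in control replicates 1 to 5 and at 12.1, 8.12, 9.27, 11.0 and 9.67 CPM in HG_1 to HG_5. HG_1 and HG_4 reached into the control range and the other 3 high glucose libraries were below it. The log2 difference of KCNN4 was -0.36 (SE 0.128, 95% interval -0.64 to -0.08) and missed the threshold (edgeR adjusted p = 0.0817). It passed without HG_1 (adjusted p = 0.0332), in DESeq2 (adjusted p = 0.0427) and after correction for GC content and length (adjusted p = 0.0176). The sodium-activated KCNT2 was at 3.69 ± 0.624 CPM against 2.69 ± 0.380 CPM, with an adjusted p of 0.0846, and passed without control replicate 2 (adjusted p = 0.0360) and after correction for GC content and length (adjusted p = 0.00855).

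The remaining expressed genes were not called by edgeR's test. Of the cytosolic subunits that bind voltage-gated pores, KCNAB2 differed by -0.32 (adjusted p = 0.0955, and 0.0424 without HG_1) and KCNAB3 by -0.49 (adjusted p = 0.0908) on the log2 scale. KCNIP2, a calcium-binding partner of KCND channels, differed by 0.08 (95% interval -0.49 to 0.65). The ether-à-go-go type pore KCNH3 was at -0.59 (adjusted p = 0.0885, 0.0129 without HG_1 and 0.0244 after correction for GC content and length), the silent subunit KCNS1 at -0.23 (95% interval -0.66 to 0.21) and the voltage-gated pore KCNC4 at 0.06 (95% interval -0.20 to 0.32). Under 0.5 FPKM, KCNU1, a pH-sensitive channel known from sperm, had the largest positive log2 difference, 1.02, on a mean of 23.4 counts (adjusted p = 0.0718, and 0.0376 after correction for GC content and length).

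Summed over all 95 genes, FPKM was between 54.2 and 66.8 in the control libraries and between 50.2 and 62.0 in the high glucose libraries. Without KCNMA1 the sum was between 38.6 and 41.0 in control and between 33.6 and 37.6 in high glucose libraries. The first ranges overlap and the second do not. Among all single rows tested, 13.6% had groups apart in CPM. These sums are weighted by the few most abundant genes. KCNN4, which was not called, went from a mean of 6.49 FPKM in control to 5.07 FPKM in high glucose libraries. KCNS3, also not called, went from 7.43 to 8.22 FPKM.

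Other genes of potassium handling (pumps, cotransporters, their kinases, volume-regulated and cation channels, and channel partners outside the KCN symbols) were read from a list of 59, all with a row. Of these, 31 reached 0.5 FPKM, 14 had no count and 36 were tested, with a median log2 fold change of -0.02. In high glucose 2 of the 36 were higher (5.56%, beside 7.62% of all rows tested) and 7 lower (19.4%, beside 7.8%). The largest fold change above 0 was that of TMEM38B, a potassium-permeable channel of the endoplasmic reticulum (22.6 ± 2.96 against 36.2 ± 4.53 CPM, SD, n = 5 each, log2 fold change 0.68, edgeR adjusted p = 0.00244). HCN2, a cation channel opened by hyperpolarization, rose by 0.36 on the log2 scale (edgeR adjusted p = 0.0495), with groups that overlapped. That call was lost when any one library other than control replicate 2 was left out (adjusted p up to 0.115), with RLE size factors (adjusted p = 0.0503) and with no filter (adjusted p = 0.0575).

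SGK1, a kinase that controls ion channels and transporters, fell from 30.3 ± 4.00 to 19.1 ± 2.14 CPM (SD, n = 5 each, log2 fold change -0.67, edgeR adjusted p = 0.00171). LRRC8A, the essential subunit of the volume-regulated anion channel, fell from 146.0 ± 4.62 to 116.7 ± 2.21 CPM (log2 fold change -0.32, edgeR adjusted p = 0.000322). The log2 fold change was -0.27 for SLC12A4, a potassium-chloride cotransporter, -0.23 for the kinase WNK2 (-0.13 after correction for GC content and length, adjusted p = 0.0480), and -0.22 for ATP1B3, a subunit of the sodium pump. It was -0.84 for the HCN2 relative HCN4, on a mean of 50.7 counts, and -0.43 for DPP10, a membrane partner of KCND channels. The HCN4 call was lost without HG_2, HG_3, HG_4 or control replicate 1, 2 or 5 (adjusted p from 0.0501 to 0.0780), and the DPP10 call without HG_2, HG_4 or control replicate 1 or 3 (adjusted p from 0.0599 to 0.0663).

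Across the other settings tried, the direction of KCND3, KCNB2, KCNK2, KCNK6 and KCNQ3 did not turn. KCND3 and KCNB2 were called in all 10 comparisons that left out 1 library and in all 11 other settings in which they were tested, and KCNK2 in all 10 and in 8 of 12. KCNK6 was called in 8 of 10 and in 9 of 12, and KCNQ3 in 5 of 10 and in 8 of 11.

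**Figure D5:**
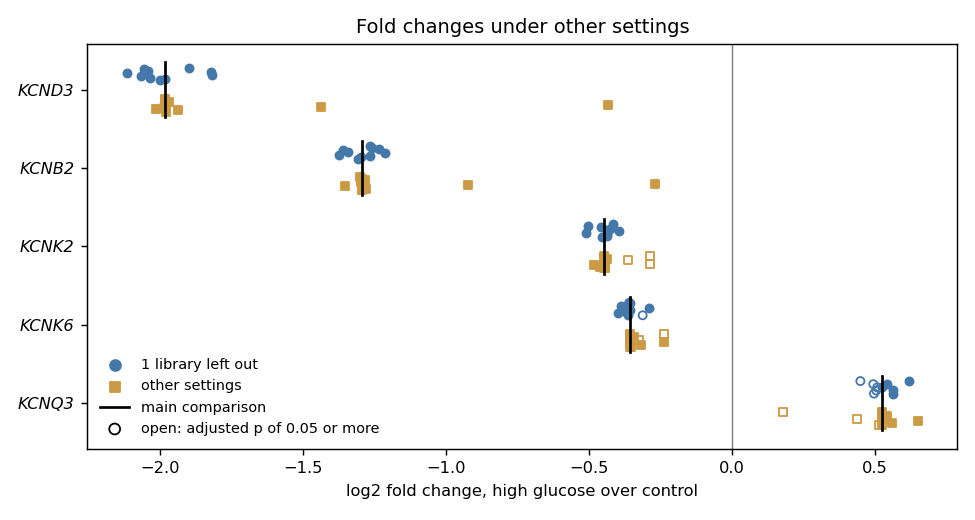
Log2 fold change of high glucose over control (x axis) for 5 called potassium channel genes when 1 library was left out (circles) and under the other settings (squares), with a vertical line at the value reported. Filled symbols have an adjusted p under 0.05 and open ones do not; KCND3 reaches from -2.12 to -0.43, where the smallest change comes from log2(FPKM + 1), and no symbol crosses 0.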

How the data were processed

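The authors deposited read counts per gene (whole numbers, not normalized) and FPKM values of the same 10 libraries, scaled for transcript length and depth. The submitters' processing notes name fastp 0.20.1, HISAT2 2.2.1 and GRCh38, and the counting program and annotation are not given in the sources used here. All per-sample columns were used. FPKM was not a fixed multiple of the counts for every gene.

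Counts were tested with R 4.3.3 and edgeR 4.0.16 (default filter, TMM, quasi-likelihood test, Benjamini-Hochberg adjustment over all rows tested). Log2 CPM for the exact permutation tests over 252 arrangements used a prior count of 2. Alternatives were DESeq2 1.42.0, other scalings and filters, limma 3.58.1 on log2(FPKM + 1) and log2(FPKM + 0.1), libraries left out, a block on the column number, a correction for GC content and length (lowess, span 0.3), counts without the 2163 assembled loci, and other FPKM limits. The steps were tested on simulated counts.

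Named in full were expressed genes called, the 6 highest by FPKM, and channels known from RPE. Called genes under 0.5 FPKM were planned more briefly, but KCND3, KCNB2 and KCNQ3 are given in full. Members, marker lists (RPE, epithelial, mesenchymal, endothelial, neuronal, glial, leukocyte) and the potassium handling list were chosen with earlier results of these data known. Gene positions and exon overlaps come from GENCODE on GRCh38, and upstream sequences from RefSeq. Counts over all members include some genes that are not reported here by name. Whether counting used strand is not given in the sources used here.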

Additional observations from a re-analysis of the deposited data

Results flagged for a closer look

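Among 86 groups of 5 values looked at, 3 values lay far from the other 4 of their group, where chance gives about 4.3, and all 3 were in control replicate 1. KCNMA1 was at 13.2 FPKM there, against 22.3 to 25.8 FPKM in the other control libraries. KCNMA1 made up 24.3% of the summed FPKM of the potassium channel genes in that library, against 36.6% to 39.1% in the others, a value that follows from the first. KCNQ5 was at 2.48 FPKM there, against 1.57 to 1.76 FPKM.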

How the results depend on the processing

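With DESeq2, 2 potassium channel genes were called higher and 8 lower. With at least 10 counts in every library or without the assembled loci, 2 were higher. Limma called 2 lower with a pseudocount of 1 on FPKM, 2 lower and 0 higher with 0.1, and 1 lower and 0 higher where the mean FPKM was 1 or more. The median log2 fold change was -0.0056 with the first and -0.043 with the second. After correction for GC content and length, which covered 13538 rows (90.6%), 3 were higher and 10 lower, among 3958 rows called. Without control replicate 2 and HG_1 together, 10 were lower, among 4035 rows called, and 4 genes of the potassium handling list were higher. On that list 1 gene was higher with RLE size factors or with no filter. Leaving out 1 library at a time gave 0 to 2 genes higher, 3 to 8 lower (fewest without HG_3, most without control replicate 2), a median from -0.23 to -0.071 (the latter without HG_4), 1 to 3 higher and 5 to 9 lower on the handling list, and 1648 to 2993 rows called in all.

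KCNMA1 turned to -0.086 (pseudocount 1, with and without the limit of 1) and -0.089 (0.1) on FPKM. Leaving out 1 library took it from -0.10 to 0.083, with turns to -0.0067 without HG_2, -0.018 without HG_4 and -0.10 without control replicate 1, and took KCNQ5 from -0.013 (without HG_4) to 0.14, with -0.011 without control replicate 2. Neither gene was called under any setting.

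The column number does not mark a shared culture, and the deviations of libraries with the same number correlated between -0.0656 and 0.0392. With the number as a replicate block, 1071 rows, 0 potassium channel genes higher and 2 lower (KCNB2 and KCND3), and 1 higher and 4 lower of the handling list were called. With 36 genes at 0.1 FPKM and 9 at 1 FPKM, the number expressed rests on the limit. The cause of these shifts was not tested. The 58 genes not tested had at most 11.2 counts on average, and 19 of them had no count in any library.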

Other observations

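Beside the genes named above, the potassium channel genes tested under 0.5 FPKM held wide intervals. The brain-type pore KCNH5 differed by -0.77 on the log2 scale (95% interval -1.38 to -0.16, adjusted p = 0.0890) and KCNH1, a relative of it, by -0.35 (95% interval -0.73 to 0.03), and 16.1% of the exon bases of KCNH1 are overlapped on the same strand and 36.9% on the other. KCNIP3, a calcium-binding partner of KCND channels, differed by 0.94 (95% interval 0.04 to 1.84, adjusted p = 0.160). None of these 3 passed edgeR's quasi-likelihood test over all libraries. KCNH5 passed without control replicate 2 (adjusted p = 0.0415), in DESeq2 (adjusted p = 0.0387) and after correction for GC content and length (adjusted p = 0.0134). The inward rectifiers KCNJ14, KCNJ11 and KCNJ2 differed by 0.07, 0.25 and 0.11, with intervals that all include 0, and for KCNJ14 10.9% of exon bases are overlapped on the same strand and 16.5% on the other.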
